A study of Homo sapiens with 5 samples.

Results

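ERG regions of human chromosome 19 in VCaP cells numbered 835, of 16095 on all chromosomes, and are set out here with the zinc-finger gene clusters of that chromosome as the dividing line. VCaP is an established prostate cancer line with the TMPRSS2-ERG fusion and a mutant form of p53. All cells were untreated. Chromatin was precipitated with an antibody to ERG in 2 samples and with an antibody to p53 in 2 samples, and input chromatin, from 1 sample, has no peak list that was used here. The samples give the positions of peaks, that is, of stretches where precipitated DNA was enriched. Overlapping peaks of the 2 ERG lists (at least 1 bp) were merged into regions, every region on chromosome 19 is a member, and p53 peaks were laid over them. Of the 835 regions, 530 (63.5%) held a peak of both replicates, against 58.2% of the regions of all chromosomes, 239 held a peak of replicate 1 alone and 66 a peak of replicate 2 alone.

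ERG belongs to the ETS family of transcription factors, which bind DNA at a GGAA core, and prostate cells that carry the fusion express it under the control of an androgen-driven promoter. Chromosome 19 is rich in genes and holds many of the human zinc-finger transcription factor genes, arranged as tandem clusters that arose by duplication. Most of these genes code for KRAB zinc-finger proteins, which recruit the corepressor TRIM28 and silence transposable elements, and the bodies of the genes themselves often carry the repressive mark H3K9me3 while their promoters can stay active. The cluster next to the centromere on the short arm includes ZNF91 and its relatives and is interspersed with satellite repeats.

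The clusters are 4 stretches in hg19 coordinates, numbered here from the short arm outward. Cluster 1 runs from 19.8 to 24.6 Mb, cluster 2 from 36.2 to 38.3 Mb, cluster 3 from 52.3 to 54.1 Mb and cluster 4 from 56.5 to 59.1 Mb, close to the end of the long arm. Other groups of zinc-finger genes elsewhere on the chromosome were counted with the rest. Peaks of this chromosome spanned bases 70621 to 59084993, and lengths were counted within that span, 11.28 Mb for the clusters and 47.73 Mb for the rest. A region belonged to a cluster when its midpoint lay there. Regions are given by position, since the gene annotation at hand is of another genome build. Regions are not replicates of a condition, and neighbouring regions are not independent, so the p-values below describe these peak lists and do not measure the spread between cultures. Copy number, gene density and sequence to which reads do not align were not taken into account.

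As a whole the clusters held ERG regions at about the density of the rest of the chromosome, but this average covered a sparse cluster, 2 that were denser than the rest (clusters 3 and 4) and cluster 2, which was not told apart from it. The clusters had 157 regions, or 13.9 per Mb, against 678 regions, or 14.2 per Mb, in the rest. The ratio of 0.98 (95% interval 0.82 to 1.17) was not told apart from 1 (exact binomial test, two-sided, p = 0.860, adjusted p = 1 over 5 tests). Each list on its own gave a like picture, with 13.3 peaks per Mb in the clusters and 13.0 in the rest for replicate 1, and 10.0 in the clusters and 10.2 in the rest for replicate 2. Without cluster 1 the ratio of the other 3 clusters to the rest was 1.48 (1.22 to 1.78, exact binomial test, unadjusted p = 7.61e-05). Leaving out the sparsest cluster raises the ratio by construction. With cluster 2, 3 or 4 left out instead, the ratio was 0.897, 0.854 or 0.833 (exact binomial tests, unadjusted p = 0.289, 0.126 and 0.092).

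Cluster 1 was sparse in both replicates. It held 21 ERG regions in 4.8 Mb, or 4.38 per Mb, which is 0.31 times the density of the rest (0.19 to 0.47, exact binomial test, adjusted p = 7.39e-10 over 4 clusters). Replicate 1 had 19 peaks and replicate 2 had 13 peaks there. The 21 regions came in 3 runs parted by stretches of more than 500 kb. The first run had 4 regions from 19932324 to 20150561, the second had 10 from 21105872 to 22034965 and the third had 7 from 23433046 to 24270096. Between them lay stretches of 955 kb and 1398 kb with no ERG region. None of the 21 regions had another within 10 kb (0 of 21), and the median distance to the nearest region was 44.3 kb, against 18.6 kb in the rest, where 222 of 678 regions (32.7%) had such a neighbour. Inside cluster 1 the 1 Mb windows starting at 20000001, 21000001, 22000001 and 23000001 held 2, 8, 2 and 3 regions. The rest was also sparse on the long-arm side of the centromere. Windows starting at 27000001, 28000001 and 29000001 held 4, 3 and 1 regions there. Those starting at 30000001, 31000001 and 32000001 held 15, 2 and 5. Low density was thus not particular to cluster 1.

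Clusters 3 and 4 had more ERG regions per Mb than the rest, and cluster 2 was not told apart from it. Cluster 3 had 42 regions, or 23.3 per Mb, 1.64 times the rest (1.17 to 2.24, exact binomial test, adjusted p = 0.00721). Cluster 4 had 54 regions, or 20.9 per Mb, 1.47 times the rest (1.09 to 1.94, exact binomial test, adjusted p = 0.0122). Cluster 2 had 40 regions, or 19.05 per Mb, 1.34 times the rest, and did not pass the test (0.95 to 1.84, exact binomial test, adjusted p = 0.0769). The test takes 1 even rate for the rest, but 12 of its 48 whole windows of 1 Mb held 20 or more regions. These p-values and intervals do not cover that unevenness. The calls of clusters 2, 3 and 4 each changed under some alternative. The list of replicate 2 on its own gave a ratio of 1.41 for cluster 3 (exact binomial test, unadjusted p = 0.0975), and the list of replicate 1 on its own gave 1.43 for cluster 2 (exact binomial test, unadjusted p = 0.0408). Over regions in both replicates alone, the calls of clusters 2 and 3 swapped. The ratios were then 1.60 for cluster 2, 1.435 for cluster 3 and 1.78 for cluster 4 (exact binomial tests, unadjusted p = 0.0186, 0.099 and 0.00102). Clusters 2 and 3 were thus not set apart from each other. When neighbours within 10 kb were counted as 1, cluster 4 had a ratio of 1.37 and no longer passed (exact binomial test, unadjusted p = 0.0596). With the longest stretch without an ERG region (24270097 to 27731985) taken out of the lengths, the ratios were lower and the calls held. Cluster 3 then had 1.535, cluster 4 had 1.374 and cluster 2 had 1.253 (exact binomial tests, unadjusted p = 0.0116, 0.0281 and 0.176). For the clusters together the ratio was 0.915 (0.76 to 1.09), with the stretch taken from the rest alone.

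**Figure D1:**
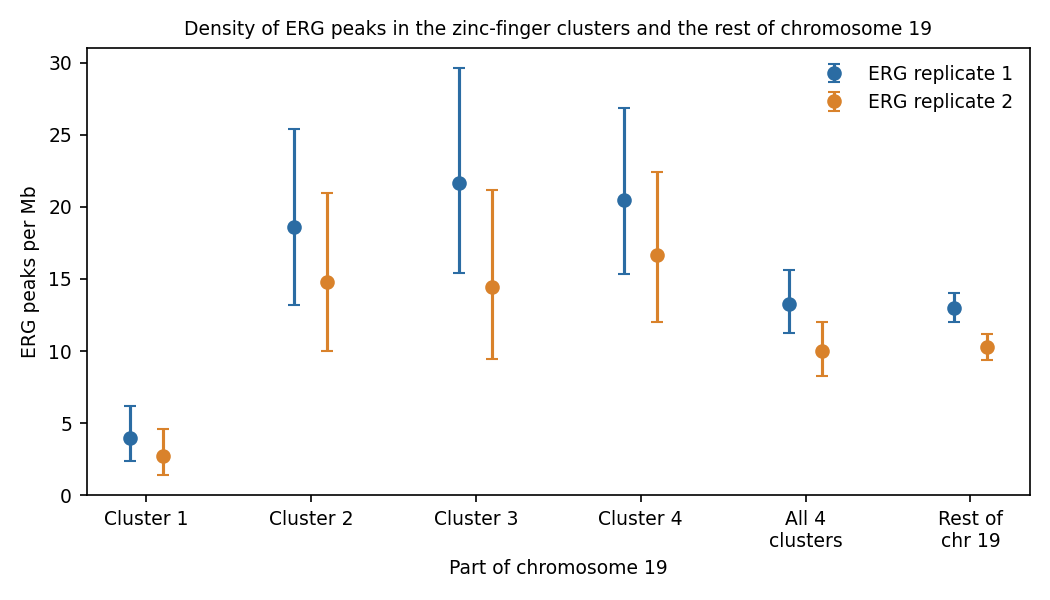
ERG peaks per Mb (y axis) in each of the 4 zinc-finger clusters, in all 4 together and in the rest of chromosome 19 (x axis), for each replicate list; bars are 95% exact Poisson intervals, which cover counting error only. Cluster 1 has 3.96 and 2.71 peaks per Mb in replicates 1 and 2, while the rest has 13.0 and 10.2.

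Regions were unevenly spread inside clusters 2 and 4 too. In cluster 2 the first 500 kb, from 36200001 to 36700000, held 17 of the 40 regions, and the next, up to 37200000, held 5. Cluster 4 had 6 regions from 56631738 to 57149764, then none for more than 500 kb, and 48 from 57702686 to 59084993. The last of these reaches the end of the span covered by any peak list, and 8 regions lay beyond 59000000. Clusters 2 and 3 showed no such break. Cluster 3 had 14, 11 and 9 regions in successive bins of 500 kb and 8 in its last, shorter bin.

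Windows of 1 Mb set the clusters beside the rest. The 11 whole windows that lay mostly in a cluster held 2 to 29 regions (median 14), and the 48 other windows held 0 to 35 (median 13.5). The densest window of the chromosome was in the rest and started at 1000001, with 35 regions, of which 16 were in both replicates. It was followed by the windows starting at 18000001 and 58000001, with 29 regions each. The second of these is in cluster 4 and had 23 regions in both replicates, the highest such number on the chromosome, against 16 for the one in the rest. At the other end, the windows starting at 25000001 and 26000001 had 0 regions, and those starting at 29000001 and 43000001 had 1 each. The longest stretch without an ERG region ran from 24270097 to 27731985, begins inside cluster 1 and reaches from there across the centromere, where genome builds hold large blocks of unresolved sequence. The next longest were from 22034966 to 23433045 in cluster 1 and from 28463747 to 29704012 in the rest (1240 kb).

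**Figure D2:**
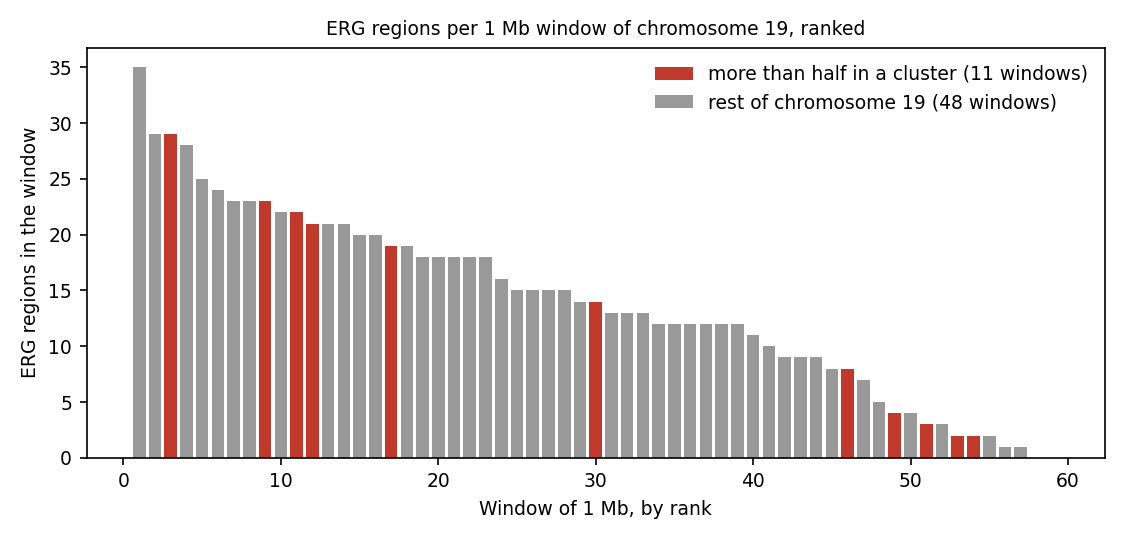
Number of ERG regions (y axis) in each of the 59 whole 1 Mb windows of chromosome 19, ranked from most to fewest (x axis), with windows mostly in a cluster in red and the others in grey. Red bars run from 29 regions to 2 and grey bars from 35 to 0.

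Recurrence, the share of regions with a peak in both replicates, was 66.9% in the clusters (105 of 157, 95% Wilson interval 59.2% to 73.8%) and 62.7% in the rest (425 of 678, 59.0% to 66.2%). The difference of 4.20 percentage points between clusters and rest (interval -4.28 to 12.01) could not be told apart from 0 (two-sided Fisher's exact test, odds ratio 1.20, p = 0.358, adjusted p = 0.998). In replicate 1, 70.0% of the peaks in clusters (105 of 150) and 68.7% of those in the rest (426 of 620) met a replicate 2 peak. In replicate 2, 93.8% of the peaks in clusters (106 of 113) and 87.9% of those in the rest (430 of 489) met a replicate 1 peak.

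Single clusters ranged more widely than this pair of shares, with overlapping intervals and no test of the differences. Cluster 4 had 41 of 54 regions in both replicates (75.9%, 63.1% to 85.4%) and cluster 2 had 30 of 40 (75%, 59.8% to 85.8%). In cluster 3, the densest, 23 of 42 were in both (54.8%, 39.95% to 68.8%), with 16 in replicate 1 alone and 3 in replicate 2 alone. In cluster 1, 11 of 21 were in both (52.4%, 32.4% to 71.7%). Counted over recurring regions alone, cluster 4 had the highest density, 15.9 per Mb, followed by cluster 2 with 14.3, cluster 3 with 12.8, the rest with 8.90 and cluster 1 with 2.29.

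**Figure D3:**
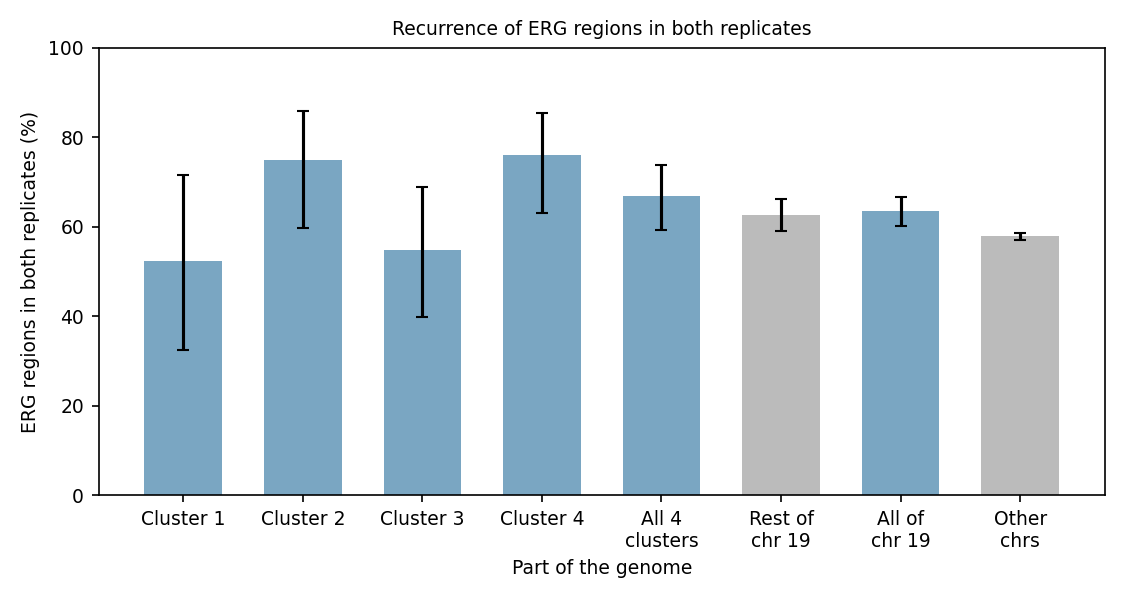
Percent of ERG regions found in both replicates (y axis) in each cluster, all 4 clusters, the rest of chromosome 19, the whole chromosome and the other chromosomes (x axis); error bars are 95% Wilson intervals. The clusters together reach 66.9% and the rest 62.7%, while clusters 1 and 3 stand at 52.4% and 54.8%.

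Peak width was compared within each list, because replicate 1 peaks were wider overall (median over all chromosomes 351 bp, against 306 bp in replicate 2). In replicate 1 the median width was 362.5 bp in the clusters and 373.5 bp in the rest, and 54.7% of cluster peaks (82 of 150) were wider than the list's median, against 54.8% in the rest (340 of 620; Fisher's exact test, p = 1, adjusted p = 1). In replicate 2 the medians were 349 bp in the clusters and 325 bp in the rest, with 61.1% (69 of 113) and 56.2% (275 of 489) above the list's median (Fisher's exact test, p = 0.399, adjusted p = 0.998). The intervals of these differences ran from -9.05 to 8.52 percentage points in replicate 1 and from -5.36 to 14.4 in replicate 2, so a moderate difference in width could not be detected at these numbers of peaks.

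In both lists cluster 1 had the narrowest peaks of the clusters and cluster 4 the widest, with no test of these differences. Cluster 1 had medians of 294 bp in replicate 1 and 229 bp in replicate 2, and 4 of 19 and 5 of 13 peaks above the medians of their lists. Cluster 4 had medians of 436 bp and 380 bp, and 36 of 53 and 32 of 43 peaks lay above. Clusters 2 and 3 lay between them, with medians of 381 bp and 335 bp in cluster 2 and 319 bp and 343 bp in cluster 3. Their order was not the same in the 2 replicates. As bases covered, ERG regions took up 1.499 per kb of cluster 1, 7.99 of cluster 2, 9.38 of cluster 3 and 10.9 of cluster 4, against 6.13 per kb of the rest.

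Wider peaks recurred more often in the clusters and in the rest alike. In replicate 1, 35.3% of the cluster peaks of up to 274 bp (12 of 34) and 93.2% of those over 479 bp (41 of 44) met a replicate 2 peak, and in the rest the shares were 37.7% (52 of 138) and 94.4% (169 of 179). In replicate 2, 80% of the cluster peaks of up to 239 bp (12 of 15) and 100% of those over 418 bp (36 of 36) recurred, against 74.3% (81 of 109) and 97.8% (135 of 138) in the rest. Stratified by these width classes, the odds ratio of recurrence between clusters and rest was 1.09 for replicate 1 peaks (Mantel-Haenszel test, n = 150 and 620 peaks, p = 0.804) and 1.88 for replicate 2 peaks (n = 113 and 489 peaks, p = 0.195).

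**Figure D4:**
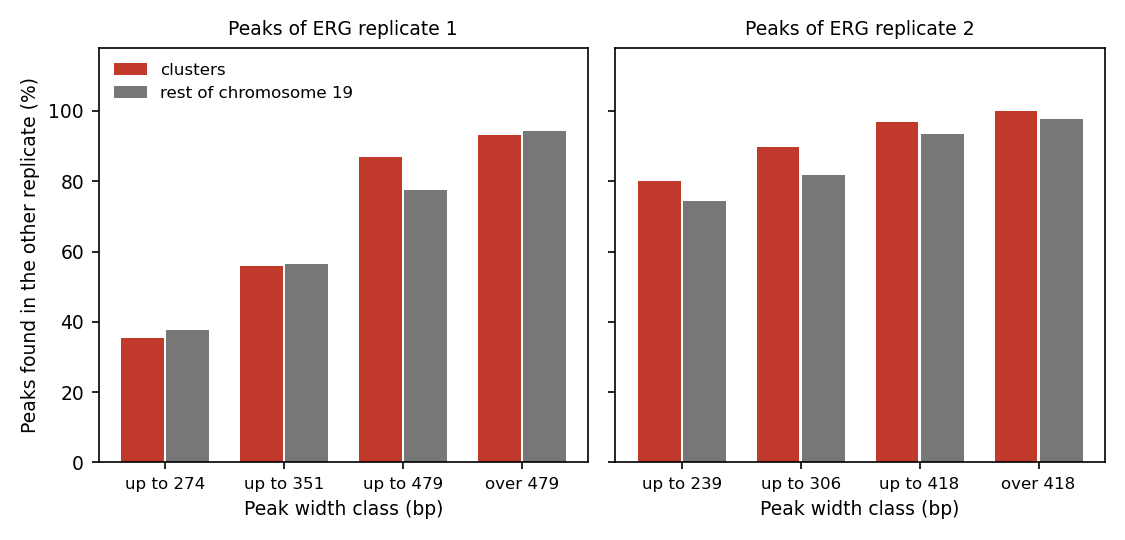
Percent of ERG peaks with an overlapping peak in the other list (y axis) by width class in bp, the quartiles of each list over all chromosomes (x axis), for clusters (red) and the rest of chromosome 19 (grey). In replicate 1 the shares climb from 35.3% to 93.2% in the clusters and from 37.7% to 94.4% in the rest.

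Where both replicates had 1 peak each, their positions and widths could be set against each other, in 523 regions of the chromosome, 104 in the clusters and 419 in the rest. Midpoints lay a median of 34.5 bp apart in the clusters and 39 bp apart in the rest, and at most 207.5 bp and 361.5 bp. The replicate 1 peak was the wider one in 76 of 104 pairs in the clusters and in 325 of 419 in the rest, with a median width ratio of replicate 1 to replicate 2 of 1.18 and 1.17 in clusters and rest. A further 7 regions held more than 1 peak of a list, 1 of them in cluster 4 at 58070387 to 58071872, where a single replicate 1 peak of 1469 bp overlapped 2 peaks of replicate 2.

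**Figure D5:**
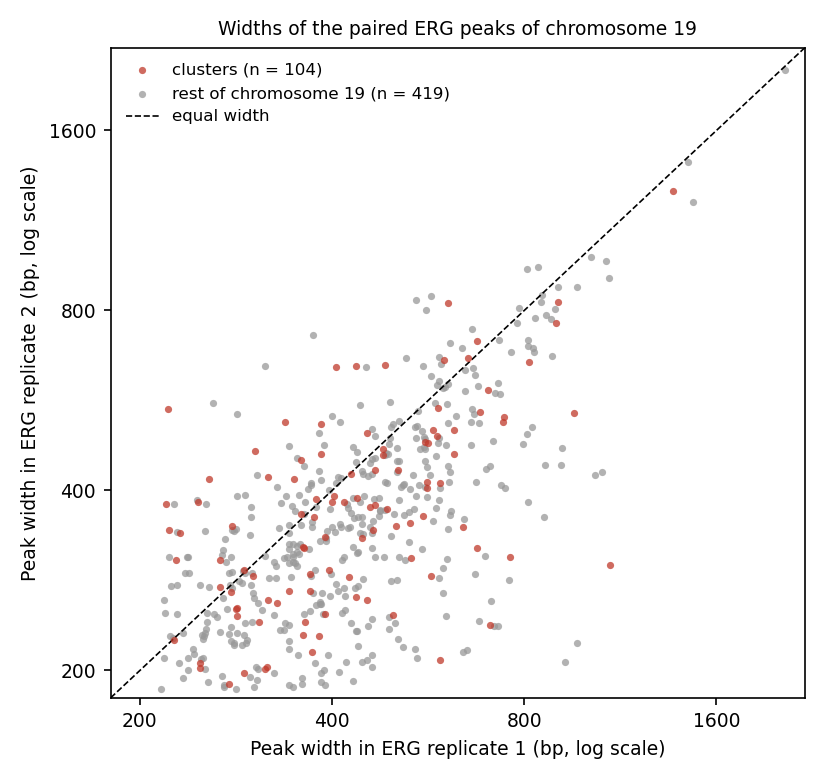
Width of the replicate 1 peak (x axis, bp, log scale) against that of the replicate 2 peak (y axis, bp, log scale) in the 523 regions of chromosome 19 with 1 peak of each list; red points are in the clusters (104), grey points in the rest (419), and the dashed line marks equal width. Most points lie below the line, 76 of the red and 325 of the grey ones.

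By the width of the narrower of its replicate peaks, the leading region of the clusters lay in cluster 4 at 56631738 to 56633104, with peaks of 1367 bp in replicate 1 and 1266 bp in replicate 2, and 193.8 kb from its nearest neighbour, the largest such distance in that cluster. The next in cluster 4 were at 58693944 to 58694758 (815 bp and 656 bp) and 58816343 to 58817063 (652 bp and 666 bp). In cluster 3 the leading regions lay at 52692785 to 52693686 (902 bp and 826 bp), 53030177 to 53031074 (898 bp and 761 bp) and 52463666 to 52464377 (674 bp and 712 bp). The leading regions of clusters 3 and 4 had wider peaks than those of clusters 1 and 2 in both lists. In cluster 2 the leading regions were at 36504933 to 36505523 (575 bp and 504 bp), 37063997 to 37064618 (622 bp and 504 bp) and 37328961 to 37329608 (484 bp and 648 bp). Those of cluster 1 were narrower, at 24216044 to 24216550 (507 bp and 432 bp), 22018749 to 22019195 (349 bp and 418 bp) and 19932324 to 19932761 (317 bp and 422 bp).

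The widest region of cluster 1 was in replicate 1 alone, at 20149946 to 20150561, with a peak of 616 bp. Single-replicate regions in the other clusters were at most 459 bp wide in cluster 2 (36208451 to 36208909), 400 bp in cluster 3 (53836676 to 53837075) and 517 bp in cluster 4 (58095146 to 58095662), and each of these also came from replicate 1. In the rest of the chromosome the region at 56165030 to 56167077, between clusters 3 and 4, led, with a 2048 bp peak in replicate 1 and a 2020 bp peak in replicate 2. After it came regions at 35738568 to 35740196 (1446 bp and 1415 bp), 796899 to 798367 (1469 bp and 1216 bp), 34745139 to 34746202 (1019 bp and 984 bp) and 50370151 to 50371238 (1076 bp and 966 bp). Only the first region of cluster 4 would rank among these 5.

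p53, a tumour suppressor that binds DNA as a tetramer and is mutated in these cells, had few peaks in the deposited lists, 11 of 227 on chromosome 19 in replicate 1 and 6 of 138 in replicate 2. The study's methods state a single peak-calling threshold, while its reporting summary states a stricter one for p53 than for ERG. The number of p53 peaks the study describes is larger than that of these files. No further filter is given for these files in the sources used here. The p53 peaks merged into 13 p53 regions on the chromosome, of 328 on all chromosomes. Of the 13, 4 were in both replicates and 9 overlapped an ERG region. The same shares were not counted over all p53 regions, so nothing particular to chromosome 19 is read from them. The clusters held 1 of the 13, in replicate 1 alone, at 58892364 to 58892553 in cluster 4, where the ERG peaks measured 590 bp in replicate 1 and 412 bp in replicate 2. Counted over ERG regions, 1 of 157 in the clusters (0.637%, Wilson interval 0.113% to 3.52%) and 8 of 678 in the rest (1.18%, 0.599% to 2.31%) met a p53 peak, which were not told apart (two-sided Fisher's exact test, p = 1, adjusted p = 1). Over all chromosomes 1.11% of ERG regions met a p53 peak. In the rest, 4 of the 8 stood side by side at 27731986 to 27738908, so that share and its interval lean on this 1 stretch. The same stretch enters the counts given for chromosome 19 as a whole.

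All 4 p53 regions found in both replicates stood side by side just beyond the peak-free stretch, on the long-arm side. The first ran from 27731980 to 27732733, with p53 peaks of 651 bp in replicate 1 and 754 bp in replicate 2 on ERG peaks of 663 bp and 744 bp. The next were at 27733870 to 27734187 (226 bp and 318 bp), at 27737234 to 27737684 (291 bp and 451 bp) and at 27738461 to 27738903 (429 bp and 443 bp). ERG was in both replicates at the first 3 and in replicate 2 alone, with 445 bp, at the last. These 4 are also the first ERG regions of the long arm. Another p53 region, at 27739460 to 27739644 in replicate 1 alone, lay 552 bp past the last of these ERG regions and met none. Whether reads here align to 1 place in the genome was not tested.

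The other 7 p53 regions of the rest were each in 1 replicate alone. Those at 4723814 to 4724015, 17530811 to 17531018 and 45582356 to 45582540, from replicate 1, and at 47104152 to 47104482, from replicate 2, overlapped ERG regions of both replicates. Those at 30067881 to 30068089, 45943119 to 45943356 and 52207297 to 52207565 met no ERG region, and the nearest lay 28644 bp, 3445 bp and 14609 bp away. Where a list had a peak, the ERG regions met by p53 measured 327 bp to 663 bp in replicate 1 (median 515 bp). In replicate 2 they measured 286 bp to 744 bp (median 437 bp). The 826 others on the chromosome had medians of 371 bp and 332 bp, again over the peaks each list held. Of the 9 met by p53, 1 had no replicate 1 peak, and 8 were in both replicates, against 63.5% of all regions on the chromosome. Wider peaks recurred more often, so these medians do not set p53 overlap apart from recurrence.

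Against the other chromosomes, chromosome 19 had wider ERG peaks and a larger share of them recurred. Peaks wider than the list's median made up 54.8% on chromosome 19 (422 of 770) and 49.7% elsewhere (6746 of 13567) in replicate 1 (Fisher's exact test, adjusted p = 0.00816 over 4 tests), and 57.1% (344 of 602) and 49.6% (5272 of 10635) in replicate 2 (Fisher's exact test, adjusted p = 0.00124). The median width of all its merged regions, 384 bp, was the highest of the 24 chromosomes, closely followed by chromosomes 21 (379 bp) and 17 (377 bp). Merged width is partly set by recurrence, so nothing is drawn from this rank. Recurrence was 63.5% on chromosome 19 (530 of 835) and 57.9% elsewhere (8836 of 15260), a difference of 5.57 percentage points (2.16 to 8.86, Fisher's exact test, odds ratio 1.26, adjusted p = 0.00302).

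With peaks of a list as the unit and stratified by the width classes of that list, the odds ratio no longer passed in replicate 1 and passed in replicate 2. For replicate 1 peaks it was 1.18 without the classes (Fisher's exact test, p = 0.0354) and 1.095 within them (Mantel-Haenszel test, n = 770 and 13567 peaks, p = 0.334). For replicate 2 peaks it was 1.55 without the classes (Fisher's exact test, p = 6.77e-04) and 1.39 within them (Mantel-Haenszel test, n = 602 and 10635 peaks, p = 0.0199). Chromosomes 21 (65.6%), 12 (63.7%) and 17 (63.6%) had higher shares, and the lowest was that of chromosome Y (31.0%). The share of ERG regions met by p53 was 1.08% on chromosome 19 (9 of 835) and 1.11% elsewhere (169 of 15260; Fisher's exact test, p = 1, adjusted p = 1).

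Values on both arms are given as a description. Outside the clusters the short arm had 326 regions, or 16.5 per Mb, with 59.2% in both replicates (53.8% to 64.4%), and the part of the long arm beyond the peak-free stretch had 352, or 14.2 per Mb, with 65.9% (60.8% to 70.7%). Set against the long arm alone, the density ratio of the clusters was again 0.98 (0.81 to 1.19) and that of cluster 1 was 0.31 (0.19 to 0.48).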

How the data were processed

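ChIP-seq of untreated VCaP cells gave 4 peak lists, 2 for ERG and 2 for p53, grouped and numbered per the labels. Replicates are described as biological, with no statement on separate cultures. Per the submitters' processing notes, the authors used CASAVA 1.4, Bowtie2 2.3.3.1 and MACS2 with hg19 (GRCh37), and each ChIP sample has its own list. The study's methods name another Bowtie2 version and both genome builds. The deposited lists have 4 columns per line (chromosome, start, end, peak name) and hold no score, enrichment, summit or read count, so depth was not used. Of the peaks, 304 on 15 of 24 chromosomes end past the GRCh38 chromosome ends, among them 39 on chromosome 19, so positions are not GRCh38, and the GRCh38 sequence, genes and promoters at hand were not used. For that reason no sequence is shown and no motif or gene is given.

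Overlapping peaks were merged (at least 1 bp). Densities were compared by exact binomial tests and shares by two-sided Fisher's exact tests, adjusted by Benjamini-Hochberg within each family of 5, 4 and 4 tests. Intervals are at 95% (Wilson for shares, Newcombe for differences of shares, exact for rates) and cover counting error only. Named regions are all p53 regions, the 3 recurring regions with the largest narrower peak and the widest single-replicate region of each cluster, the first 5 of the rest, the densest and sparsest windows and the longest empty stretches. The region with several peaks in cluster 4 and the cluster subdivisions were chosen after their values were seen. The members, clusters and tests were chosen with earlier results of these data known. The statistics were tested on simulated data with independent regions at an even rate. That simulation does not cover the uneven spread of the regions here. Alternatives comprised other overlap rules, cluster edges, single lists, merging within 10 kb, width classes (Mantel-Haenszel test) and parts left out. Computations used Python 3.11.15, numpy 2.4.6, scipy 1.17.1 and statsmodels 0.14.6, and matplotlib 3.10.9 for plots.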

Additional observations from a re-analysis of the deposited data

How the results depend on the processing

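Of 84 alternatives over 13 results, 66 kept the direction and the side of the threshold (p 0.05), 11 turned the direction, 5 lost a call and 2 gained one, by unadjusted p. Of the 11 turned, 1 passed the threshold, the density ratio of the clusters without cluster 1 (1.48). The other density ratios on the far side of 1 were 1.01 without the densest window of the rest, 1.04 for recurring regions alone and 1.02 without ERG replicate 2, while it was 0.977 without ERG replicate 1. The recurrence odds ratio of clusters against rest was 0.977 without cluster 4. For replicate 1 widths it was 1.02 at the upper quartile and 1.07 for recurring peaks. Recurrence of chromosome 19 had an odds ratio of 1.095 for replicate 1 peaks within their own width classes, 1.10 within classes of merged region width and 0.91 against chromosome 21 alone. Merged width is partly set by recurrence, since a region with peaks of both lists is their union, so nothing is drawn from those classes. Its p53 overlap had odds ratios of 1.14 and 1.27 without p53 replicate 1 or 2 and 1.08 for recurring regions. In single clusters, calls changed in at least 1 of these settings, with density ratios of 1.60 for recurring regions and 1.43 to 1.44 with either list left out in cluster 2, 1.435 for recurring regions and 1.41 to 1.67 with either list left out in cluster 3, and 1.37 with neighbours merged in cluster 4. Cluster 1 kept ratios of 0.26 to 0.39 in all 6 of its alternatives. The causes were not tested.

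No paired analysis was possible because peak positions were tested without a fitted model, so no replicate term exists. Of the alternatives, 19 were chosen after seeing the data, namely all those of single clusters beyond single lists and recurring regions, merged neighbours and single-list peaks for chromosome 19, and the width classes of single lists. Gene and motif results that need an hg19 reference were not run. Absence from a list is a missing call, not evidence of absent binding.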

Other observations

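Close pairs of ERG regions, with midpoints at most 1 kb apart, occurred 22 times on chromosome 19, 6 times in the clusters and 16 times in the rest. Both regions were in both replicates in 7 pairs, 1 of the 2 was in 9 pairs, and neither was in 6. The last ERG regions before the end of the covered span form such a pair in cluster 4, at 59084053 to 59084481 and 59084716 to 59084993, and both were in both replicates. The pair at 36207729 to 36208090 and 36208451 to 36208909 in cluster 2 was in replicate 1 alone. These values are a description, chosen after the data were seen, and no test was run.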
